A study of Mus musculus with 9 samples.

Results

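The SLC25 family holds most of the carrier proteins of the inner mitochondrial membrane. Its genes were taken here by name, as every gene of the deposited count table whose symbol is *Slc25a* followed by a number. This gave 47 of the 52636 genes in the table, and 41 of the 47 carried enough reads to be tested, among 16322 genes tested in all. RNA was sequenced from left ventricular tissue of 16-week-old C57BL6J mice in 9 libraries, 5 labelled VDAC2 WT (libraries 1 to 5) and 4 labelled VDAC2 KO (libraries 6 to 9). In the study, floxed *Vdac2* was deleted by a Cre driven by the αMHC promoter, and the deletion is described as specific to ventricular myocytes. The cells of the tissue that are not myocytes would then keep the gene. WT mice were littermates that carried the floxed alleles or Cre alone. The study used both sexes, removed 1 WT sample of poor RNA quality and does not name it, so all 9 libraries were kept. Nothing in the labels says more about which animal gave which library, and the p-values below measure only the spread between these libraries.

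Libraries held 27345052 to 44673988 counted reads. Levels are given in CPM, in which counts are divided by the library size after TMM scaling. A count of 3, below which no level is read, came to 0.0693 to 0.114 CPM (counting error only). Among the libraries labelled WT, the CPM of *Vdac2*, the deleted gene, was 20.2, 366, 58.5, 365 and 21.3 (libraries 1 to 5). Among those labelled KO it was 384, 20.5, 421 and 19.1 (libraries 6 to 9). The labels did not separate it (exact two-sided permutation test, p = 0.80, 126 arrangements). Its level contradicted the WT label of libraries 1 and 5, where it was low, and the KO label of libraries 6 and 8, where it was high. It was also low in library 3, labelled WT. The summed level of 7 cardiomyocyte markers was low there too, at 51692 CPM against at least 129167 CPM in the others. The *Vdac2* level of library 3 is therefore not set against its label, and the reason for it was not tested. The carriers were therefore examined in 2 ways. They were tested between the deposited labels, and they were described, with no test, in libraries 1, 5, 7 and 9, where *Vdac2* was under 100 CPM (Vdac2-low), beside libraries 2, 4, 6 and 8, where it was over 300 CPM (Vdac2-high). The second set of libraries comes from a measured value and is not a grouping of the study, so no library is given another genotype by it. Library 3 is shown apart because it differed widely from the other 8, with 9.07% of its reads on mitochondrially encoded genes against 16.8% to 19.2% in the others. Lane 1 of the flow cell carried the libraries labelled WT and lane 2 those labelled KO. *Xist*, the RNA of the inactive X chromosome, was at most 0.152 CPM in lane 1 and at least 335 CPM in lane 2, so label, lane and the sex-linked genes cannot be told apart. Each lane held both Vdac2-low and Vdac2-high libraries.

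Most SLC25 carriers are small proteins of the inner membrane that exchange metabolites between the matrix and the intermembrane space. VDAC channels of the outer membrane, of which VDAC2 is one, pass the same metabolites to and from the cytosol. In the heart, which runs on oxidative phosphorylation, the adenine nucleotide translocators export ATP in exchange for ADP, the phosphate carrier brings in phosphate for ATP synthesis, the malate and aspartate carriers move reducing equivalents, and the carnitine-acylcarnitine carrier brings in fatty acids.

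Levels between carriers were compared per kilobase of exon. *Slc25a4* (ENSMUSG00000031633, GRCm38 chromosome 8 from 46206797 to 46211284), the adenine nucleotide translocator of heart and skeletal muscle, had the highest mean level over the 9 libraries, 1753 CPM per kb. It alone took 58.7% of all reads counted on the carriers (42.8% in library 3 and 57.7% to 60.8% in the others). *Slc25a11*, the oxoglutarate-malate carrier, which has an exon of *Rnf167* on its opposite strand, followed at 229 CPM per kb and *Slc25a3*, the phosphate carrier, at 173 CPM per kb. *Slc25a34*, a carrier whose substrate is not given here, was next at 59.2 CPM per kb, above *Slc25a5* at 50.4 CPM per kb, the translocator of most other tissues. In libraries 1, 3 and 5 *Slc25a5* was instead the higher of the pair, by the most in library 3 (50.7 against 4.24 CPM per kb). Next were *Slc25a13* (46.8 CPM per kb) and *Slc25a12* (29.5 CPM per kb), the aspartate-glutamate carriers, with *Slc25a20*, the carnitine-acylcarnitine carrier, between them at 34.6 CPM per kb. *Slc25a13* was above *Slc25a5* in libraries 2, 6, 7, 8 and 9, so the order of *Slc25a34*, *Slc25a5* and *Slc25a13* was not the same in all libraries. In library 3 *Slc25a12* (12.4 CPM per kb) was above *Slc25a20* (9.72 CPM per kb), and both were above *Slc25a34*. *Slc25a31*, the translocator of the testis, was the lowest of the 41, at 0.277 CPM per kb. Of the 41, 12 had a mean of at least 50 CPM and 7 a mean under 5 CPM.

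The promoters of *Slc25a4*, *Slc25a5* and *Slc25a34* are printed because their ratios to other carriers were the ones most often separated by *Vdac2* level, as described below. Each window runs from 250 bases before the start site to 50 after it and is taken from RefSeq on GRCm38.p6, 5′ to 3′ on the gene's strand, with matches to the motifs searched on both strands in capitals. The windows are chr8:46211013-46211312 (minus strand), chrX:36795347-36795646 (plus strand) and chr4:141623785-141624084 (minus strand). They follow the start sites of RefSeq, whereas the gene coordinates given elsewhere are from GENCODE M21, and the 2 sources differ. The GENCODE start of *Slc25a5* (36795651) lies just past the end of its window. That of *Slc25a4* (46211284) lies near the upstream end of its window.
Slc25a4: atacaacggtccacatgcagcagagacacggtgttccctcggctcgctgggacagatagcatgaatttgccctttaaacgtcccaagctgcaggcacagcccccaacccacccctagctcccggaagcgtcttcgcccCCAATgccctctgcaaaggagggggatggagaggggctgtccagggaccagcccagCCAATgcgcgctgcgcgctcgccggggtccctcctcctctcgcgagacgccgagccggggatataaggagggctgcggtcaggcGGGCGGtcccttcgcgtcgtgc
Slc25a5: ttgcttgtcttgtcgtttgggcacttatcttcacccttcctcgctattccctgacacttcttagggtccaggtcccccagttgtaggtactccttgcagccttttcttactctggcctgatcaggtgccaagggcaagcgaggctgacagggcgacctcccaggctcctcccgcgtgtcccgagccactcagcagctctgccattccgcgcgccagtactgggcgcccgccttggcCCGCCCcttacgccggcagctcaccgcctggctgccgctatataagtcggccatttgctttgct
Slc25a34: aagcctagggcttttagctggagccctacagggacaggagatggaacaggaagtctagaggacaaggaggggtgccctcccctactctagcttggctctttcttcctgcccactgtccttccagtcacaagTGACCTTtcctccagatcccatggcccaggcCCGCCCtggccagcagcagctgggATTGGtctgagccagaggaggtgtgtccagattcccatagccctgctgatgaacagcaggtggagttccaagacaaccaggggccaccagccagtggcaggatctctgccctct
The motifs were the CCAAT box (CCAAT), the GC box (GGGCGG), the TATA box (TATAAA), the half-site of the oestrogen-related receptors (AAGGTCA), which are nuclear receptors of oxidative metabolism, and the NRF1 motif, 10 letters long and bound by a factor that controls many mitochondrial genes. Only these letter patterns were searched, so other forms of a motif are left in lower case, and an unmarked window may still hold one. No 2 matches overlap in these windows. RefSeq gave promoters for 36 of the 47 carriers, 46 windows in all. A GC box was in 82.6% of these windows, against 35.7% of the 32851 mouse promoter windows, and a CCAAT box in 47.8% against 37.4%. The AAGGTCA half-site was in the window of *Slc25a34* only, 2.17% of carrier windows against 4.72% of all. The NRF1 motif was in the windows of *Slc25a3* and *Slc25a31* (4.35% against 4.6%), and TATAAA in those of *Slc25a18* and *Slc25a21* (4.35% against 13.6%). A match is a description of the letters, and binding was not measured.

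Between the deposited labels, no carrier passed the test. With edgeR's quasi-likelihood test and Benjamini-Hochberg adjustment over all genes tested, 0 of the 41 were below an adjusted p of 0.05, against 0.0551% of all genes, and the lowest adjusted p was 0.68. DESeq2 and limma with library quality weights also called 0 carriers, while they called 63 and 79 genes in all. Without adjustment 1 carrier had p under 0.05, 2.44% of the 41 against 6.11% of all genes. The log2 fold change (labelled KO minus labelled WT) ran from -0.62 (*Slc25a24*) to 0.57 (*Slc25a34*), with a median of 0.075 against -0.018 over all genes. Both ends rested on library 3, in which *Slc25a24* was at 41.6 CPM against 10.2 to 12.6 CPM in the other 8, and without which *Slc25a34* was at 0.27 and the median at 0.046. It was above 0 for 26 of 41 carriers (63.4%) against 47.3% of all genes. Without library 3, labelled WT, 5 carriers had an unadjusted p under 0.05 against 11.8% of all genes, and still none passed with adjustment. In bulk tissue, fewer cells of a type and less RNA per cell cannot be told apart.

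**Figure D1:**
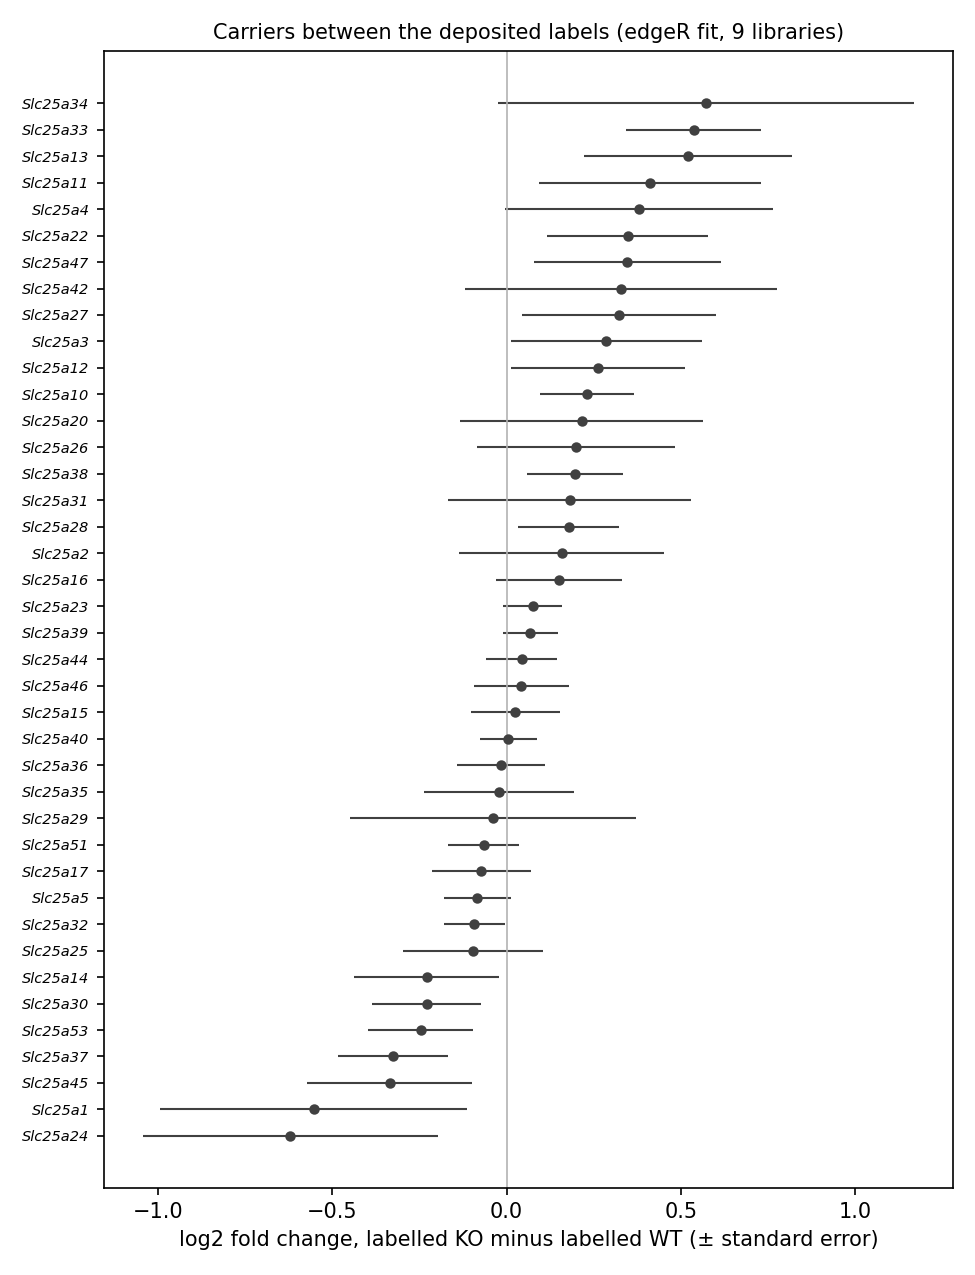
Log2 fold change of 40 of the tested carriers, libraries labelled KO minus those labelled WT, from the edgeR fit of 9 libraries (points), with the standard error of each (bars). The points run from -0.62 for *Slc25a24* to 0.57 for *Slc25a34*, and no carrier passed the adjusted test.

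The carrier with the unadjusted p under 0.05 was *Slc25a33* (chromosome 4 from 149744036 to 149774277), a pyrimidine nucleotide carrier. Libraries 1 to 5, labelled WT, had 15.1, 15.2, 7.85, 10.9 and 15.2 CPM of it, and libraries 6 to 9, labelled KO, had 17.7, 17.95, 20.2 and 18.7 CPM. All 4 libraries labelled KO were thus above all 5 labelled WT, with means of 18.6 ± 1.15 CPM (SD, n = 4) against 12.9 ± 3.36 CPM (SD, n = 5). This is a log2 difference of 0.54 (standard error 0.19), with an unadjusted p of 0.021 and an adjusted p of 0.68 in the edgeR test. Library 3 was the lowest of all for *Slc25a33*, and with a library left out the difference ran from 0.39 to 0.60. An exon of *Gm13068* lies on the opposite strand of this gene. The strand setting of the counting is not given in the sources used here. The levels of *Slc25a33*, *Slc25a11* and other carriers with such an exon are therefore uncertain. The others named here are *Slc25a46*, *Slc25a37*, *Slc25a10*, *Slc25a25*, *Slc25a26*, *Slc25a18* and *Slc25a21*. *Slc25a13* (chromosome 6 from 6041218 to 6217173) had a similar fold change of 0.52 (standard error 0.30, adjusted p = 0.68 by edgeR), where the label WT had 149 ± 53.7 CPM (SD, n = 5) and the label KO 214 ± 22.4 CPM (SD, n = 4). Its lowest library was library 3, at 57.4 CPM. Without library 3, its fold change was 0.31 (adjusted p = 0.27 by edgeR).

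For the most abundant carriers the difference between the labels was within the spread of all the libraries labelled WT. For *Slc25a11* and *Slc25a3* this rested on library 3. Without it, the libraries labelled WT had 467 to 524 and 931 to 1034 CPM, below the KO means of 564 and 1065 CPM. Library 7, labelled KO, still lay inside both ranges. The KO means of *Slc25a4* and *Slc25a5* stayed inside the WT ranges. *Slc25a4* averaged 3639 ± 1496 CPM (SD, n = 5) under the label WT and 4734 ± 509 CPM (SD, n = 4) under the label KO. The fitted log2 difference of 0.38 was as large as its standard error of 0.38 (adjusted p = 0.74 by edgeR). Without library 3 it was 0.13. *Slc25a11* and *Slc25a3* had log2 fold changes of 0.41 (standard error 0.32) and 0.29 (standard error 0.27), with adjusted p of 0.70 and 0.73 in the same edgeR test. Without library 3 they were 0.19 and 0.090. *Slc25a5*, on the X chromosome, averaged 85.0 ± 7.10 CPM (SD, n = 5) under WT and 80.3 ± 7.66 CPM (SD, n = 4) under KO. Its fold change was -0.083 (standard error 0.097), smaller than its error, and ran from -0.15 without library 9 to -0.050 without library 6, with -0.055 and -0.054 without libraries 1 and 5.

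Between the Vdac2-low and Vdac2-high libraries the carriers lay close together. The values that follow describe libraries chosen by their *Vdac2* level. Differences are of the medians in log2 CPM, Vdac2-low minus Vdac2-high. They ran from -0.64 (*Slc25a29*) to 0.25 (*Slc25a5*), and their median was -0.083 against 0.0049 over all genes tested. The median was nearer 0 without library 1 (-0.042), 2 (-0.040) or 6 (-0.049). They were within 0.2 of 0 for 35 of 41 carriers (85.4%) against 66.5% of all genes. The difference was negative for 27 of 41 carriers (65.9%) against 49.0% of all genes. In 2 carriers every Vdac2-low library was below every Vdac2-high library, 4.88% against 4.93% of all genes, and in 0 carriers every Vdac2-low library was above, against 7.16%.

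**Figure D2:**
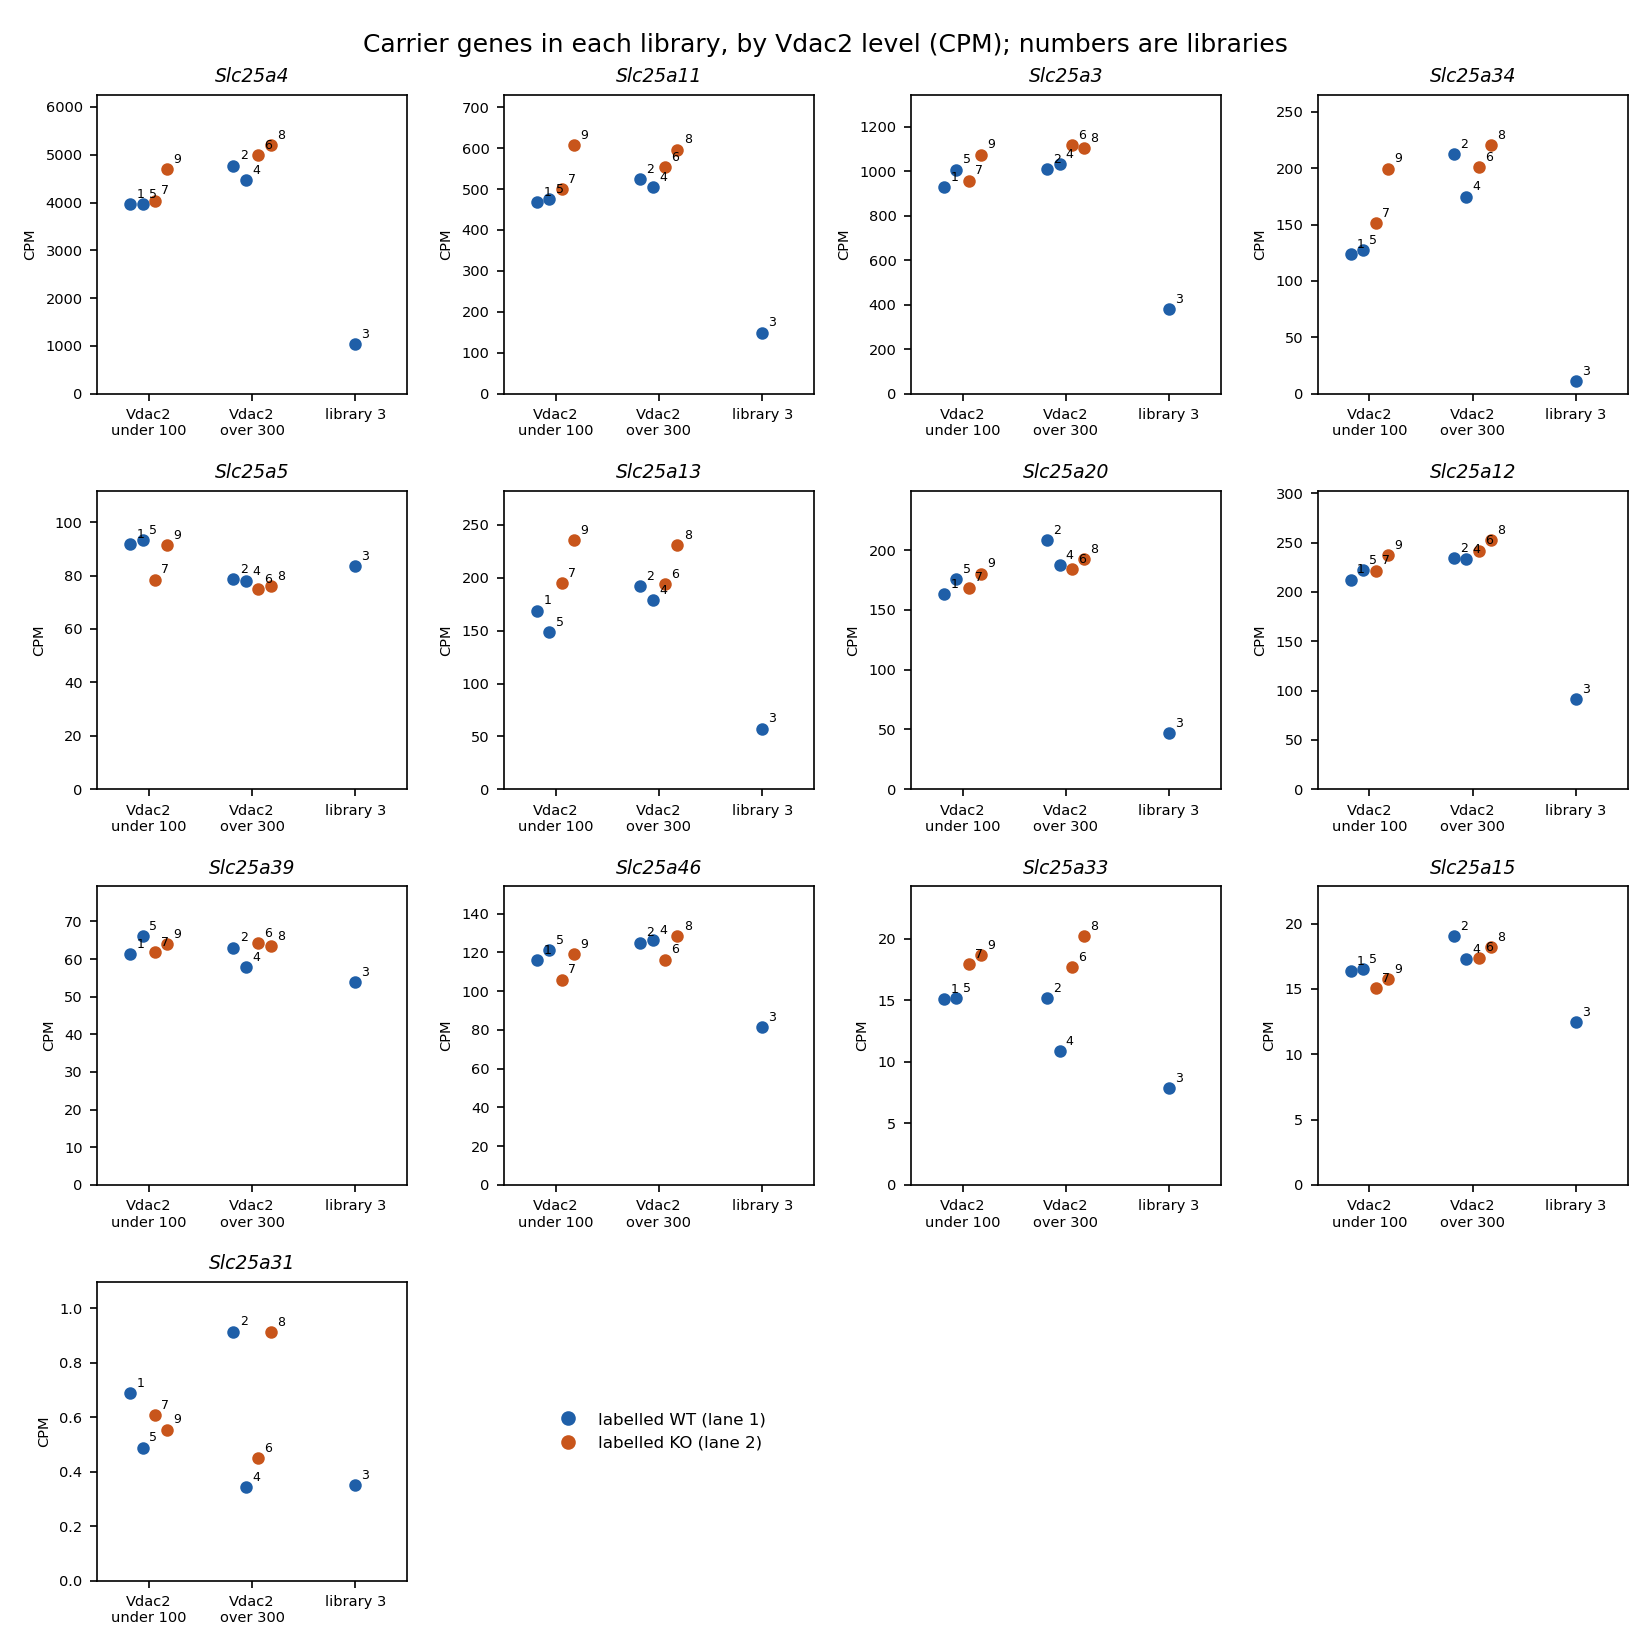
Level of 13 carriers in each library (CPM, linear axes from 0), with libraries placed by *Vdac2* level and coloured by deposited label, and the library number beside each point. Vdac2-low and Vdac2-high libraries overlap in all of the 13 but *Slc25a15* and *Slc25a20*, and library 3 is far below the others in *Slc25a4*, *Slc25a11*, *Slc25a3*, *Slc25a34*, *Slc25a13*, *Slc25a20* and *Slc25a12*.

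Of the adenine nucleotide translocators, *Slc25a4* was at 3961, 3959, 4038 and 4699 CPM in the Vdac2-low libraries 1, 5, 7 and 9. In the Vdac2-high libraries 2, 4, 6 and 8 it was at 4774, 4465, 4990 and 5208 CPM. Library 9 reached above library 4, so the sets overlapped, with medians of 3999 and 4882 CPM and a difference of -0.29. Within lane 1 and within lane 2 the Vdac2-low libraries were below the Vdac2-high ones, by -0.22 and -0.23. *Slc25a5* (ENSMUSG00000016319, X chromosome from 36795651 to 36798807) differed the other way. It was at 91.7, 93.2, 78.5 and 91.5 CPM in libraries 1, 5, 7 and 9 and at 78.8, 78.0, 74.9 and 76.1 CPM in libraries 2, 4, 6 and 8. Library 7 lay just under library 2, and within each lane the Vdac2-low libraries were above, by 0.24 and 0.17. The level of *Slc25a5* is uncertain, since 33.8% of the 50-base stretches of its transcripts also occur in transcripts of 9 other genes. *Slc25a31* was between 0.342 and 0.914 CPM in all libraries, with the 2 sets mixed.

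The ratio of *Slc25a4* to *Slc25a5*, per kilobase, put both differences in 1 value. It was 30.2, 29.7, 36.0 and 35.9 in libraries 1, 5, 7 and 9 and 42.4, 40.0, 46.6 and 47.9 in libraries 2, 4, 6 and 8. The sets did not overlap, and library 3 stood far below both at 8.68. This ratio was chosen after its values were seen, and of the 820 pairs of tested carriers 71 (8.66%) had a ratio that did not overlap between the sets. *Slc25a4*, *Slc25a5* and *Slc25a34* were each in 11 of those pairs, more than any other carrier.

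**Figure D3:**
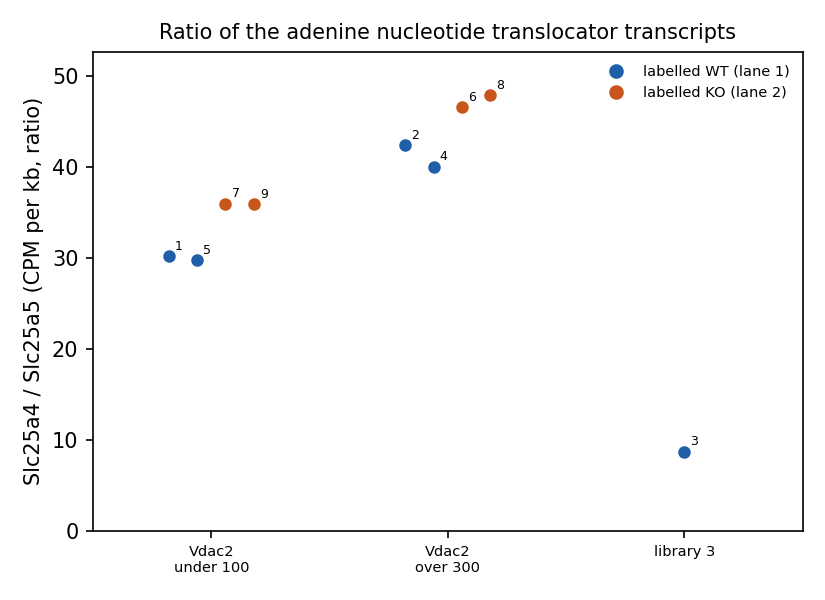
Ratio of *Slc25a4* to *Slc25a5* in CPM per kb in each library, by *Vdac2* level and deposited label, with the library number beside each point. The Vdac2-low libraries run from 29.7 to 36.0, the Vdac2-high libraries from 40.0 to 47.9, and library 3 is at 8.68.

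The phosphate carrier *Slc25a3* (chromosome 10 from 91116574 to 91124059) measured 931, 1008, 958 and 1076 CPM in libraries 1, 5, 7 and 9. It was at 1010, 1034, 1120 and 1105 CPM in libraries 2, 4, 6 and 8, so the sets overlapped, and the difference was -0.12 (-0.073 without library 6 or without library 8). Among cofactor carriers, *Slc25a42*, which carries coenzyme A, was at 17.9, 16.7, 24.9 and 12.5 CPM in libraries 1, 5, 7 and 9, and at 24.2, 21.5, 25.1 and 21.8 CPM in libraries 2, 4, 6 and 8. Its difference was -0.41, with library 7 as high as the Vdac2-high libraries and library 9 the lowest of the 8. *Slc25a51*, the carrier of NAD, was between 55.1 and 61.4 CPM in the Vdac2-low libraries and between 61.0 and 69.4 CPM in the Vdac2-high ones, where only libraries 1 and 6 crossed. For the 14 tested carriers of adenine nucleotides, phosphate and cofactors the median difference was -0.037, and 7 of them were lower in median in the Vdac2-low libraries (49.0% of all genes were), 0 of them without overlap.

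Among the carriers of the malate-aspartate shuttle, *Slc25a11* (chromosome 11 from 70644196 to 70647479) measured 467, 475, 499 and 608 CPM in libraries 1, 5, 7 and 9 and at 524, 505, 554 and 596 CPM in libraries 2, 4, 6 and 8. Library 9 was the highest of all, and the difference was -0.15. *Slc25a12* (chromosome 2 from 71271063 to 71367749) measured 213, 222, 222 and 238 CPM, and at 234, 233, 242 and 252 CPM in the same order. The Vdac2-low libraries were below the Vdac2-high ones in each lane, by -0.11 in both. *Slc25a13* was at 169, 148, 195 and 235 CPM, and at 192, 179, 194 and 231 CPM, with a difference of -0.23 in lane 1 and 0.015 in lane 2. Outside the shuttle, *Slc25a22*, a glutamate carrier, differed by -0.36 (10.7 to 14.9 against 11.9 to 17.3 CPM), and *Slc25a10*, the dicarboxylate carrier, by 0.080. Over the 6 tested dicarboxylate, tricarboxylate and aspartate-glutamate carriers, which include the citrate carrier *Slc25a1*, the median difference was -0.095.

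The sets did not overlap in *Slc25a20* and *Slc25a15*. *Slc25a20* (chromosome 9 from 108662088 to 108684641) measured 163, 176, 169 and 180 CPM in libraries 1, 5, 7 and 9. In libraries 2, 4, 6 and 8 it was at 208, 188, 184 and 193 CPM. The medians were 172 and 190 CPM, a difference of -0.14, and the nearest libraries, 9 and 6, were at 180 and 184 CPM. *Slc25a15* (chromosome 8 from 22375551 to 22398597), the ornithine carrier of the urea cycle, was at 16.3, 16.5, 15.1 and 15.8 CPM in libraries 1, 5, 7 and 9 and at 19.1, 17.3, 17.4 and 18.2 CPM in libraries 2, 4, 6 and 8. Its difference was -0.15.

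The 9 tested carriers of amino acids, folate, S-adenosylmethionine and glutathione, *Slc25a15* included, had a median difference of -0.022, and 7 of the 9 were lower in median in the Vdac2-low libraries (49.0% of all genes were), of which only *Slc25a15* was without overlap. *Slc25a39*, which carries glutathione, was between 61.3 and 66.1 CPM in the Vdac2-low libraries and between 57.7 and 64.3 CPM in the Vdac2-high ones. The largest difference was in *Slc25a29*, a carrier of basic amino acids at low level. It was at 1.80, 2.62, 1.71 and 1.57 CPM in libraries 1, 5, 7 and 9 and at 3.33, 2.66, 2.89 and 2.44 CPM in libraries 2, 4, 6 and 8, so library 5 was above library 8. *Slc25a44*, a carrier of branched-chain amino acids, differed in opposite directions in the lanes, by -0.035 in lane 1 and 0.076 in lane 2. The iron carriers *Slc25a28* and *Slc25a37*, the mitoferrins, had differences of -0.14 and -0.028, and the 3 uncoupling-protein-like carriers *Slc25a14*, *Slc25a27* and *Slc25a30* had 0.18, -0.14 and 0.013.

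Of the carriers whose substrate is not given here, *Slc25a34* (chromosome 4 from 141618824 to 141623821) showed the widest values. It was at 124, 127, 151 and 200 CPM in libraries 1, 5, 7 and 9 and at 212, 175, 201 and 221 CPM in libraries 2, 4, 6 and 8. Library 9 was above library 4, and the difference was -0.58. Within lanes it was -0.62 and -0.28, without overlap in either. *Slc25a46*, which lies in the outer membrane and acts in mitochondrial fission and fusion, was between 106 and 121 CPM in the Vdac2-low libraries and between 116 and 128 CPM in the Vdac2-high ones.

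Since lane and label coincide, the carriers were also set side by side within each lane. In 8 carriers the Vdac2-low libraries were below the Vdac2-high ones without overlap in both lanes, 19.5% of the 41 against 8.58% of all genes. These were *Slc25a4*, *Slc25a3*, *Slc25a34*, *Slc25a20*, *Slc25a12*, *Slc25a51*, *Slc25a15* and *Slc25a29*. Only *Slc25a5* was above in both lanes, 2.44% against 11.3% of all genes, and only *Slc25a44* was separated in opposite directions, against 1.8% of all genes. The medians were lower in both lanes for 18 carriers and higher in both for 10. The share of all genes was not computed for these 2 counts, so they are not read as a trait of the carriers.

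**Figure D4:**
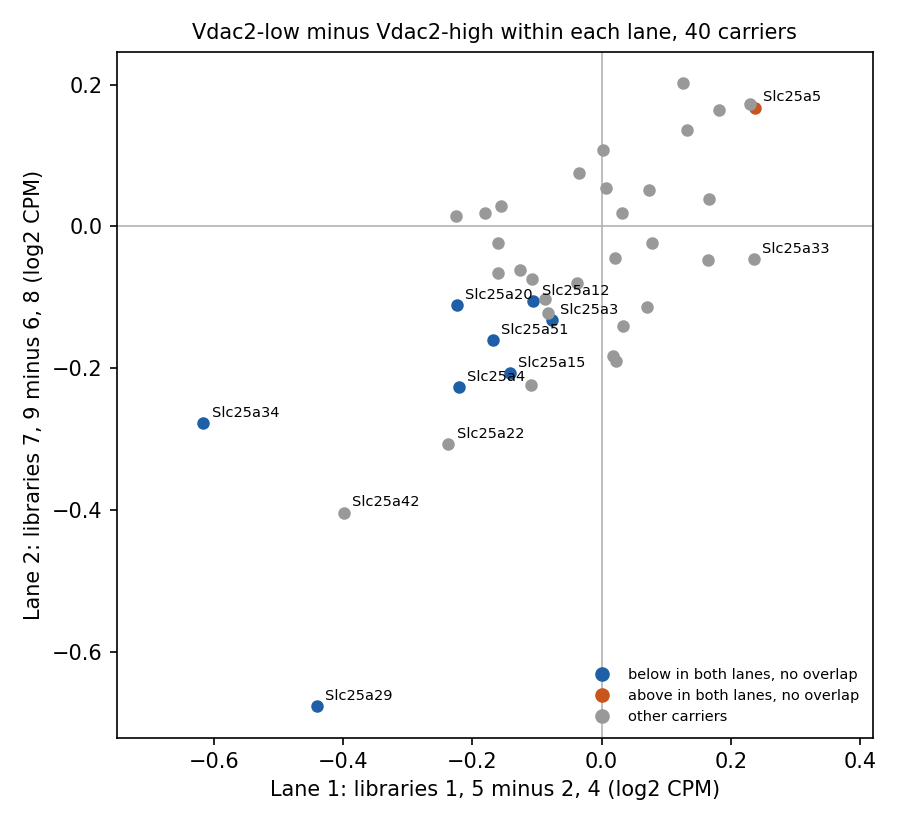
Difference in log2 CPM, Vdac2-low minus Vdac2-high, of 40 of the tested carriers within lane 1 (horizontal) and lane 2 (vertical). The 8 carriers in blue, from *Slc25a29* and *Slc25a34* to *Slc25a3*, were below without overlap in both lanes, and *Slc25a5*, in orange, was above in both.

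Markers of some cell types moved with the same libraries. Over all genes, 49.0% were lower in median in the Vdac2-low libraries, and 8.58% were below and 11.3% above without overlap in both lanes. The 7 cardiomyocyte markers (*Myh6*, *Tnnt2*, *Tnni3*, *Actc1*, *Ryr2*, *Pln* and *Ttn*) were all lower in median in the Vdac2-low libraries, 3 of 7 without overlap in both lanes, and their summed level was 129167 to 140235 CPM there against 146518 to 161284 CPM in the Vdac2-high libraries. All 5 endothelial markers were lower in median and 4 of 5 were below in both lanes (summed 479 to 595 against 595 to 689 CPM). All 5 macrophage markers were above in both lanes (294 to 439 against 197 to 292 CPM), and so were 4 of 6 fibroblast markers (1147 to 1330 against 884 to 1148 CPM). The 4 smooth muscle and pericyte markers (1165 to 1394 against 1157 to 1366 CPM) and the 5 erythroid markers (694 to 1369 against 590.3 to 2056 CPM) overlapped in their sums, with 1 of 4 and 0 of 5 separated in both lanes. The 2 atrial markers tested were low throughout (summed 2.33 to 3.23 CPM in the Vdac2-low and 1.83 to 2.701 CPM in the Vdac2-high libraries). *Myl4* was above without overlap (difference 0.45), *Myl7* had a difference of 0.72 with the sets overlapping, and *Sln*, not tested, had at most 2 counts in any library. Scaling each library to its 7 cardiomyocyte markers moves every gene of a library by the same amount. On that scale the median difference over all genes became 0.20 and that of the carriers 0.11. Accordingly 0 carriers were below in both lanes (1.38% of all genes) and 14 were above (37.7% of all genes). *Slc25a4* was then at -0.045, *Slc25a34* at -0.34 and *Slc25a5* at 0.43, values that include the shift of all genes. The part of cell makeup in these differences was not tested.

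Library 3 differed from the other 8 far more than the 2 sets did from each other. It was over 2-fold below the lowest of the other 8 in 12 carriers, 29.3% of the 41 against 11.3% of all genes, and over 2-fold above the highest in 2 carriers, 4.88% against 10.9%. It was the lowest of the 9 in 24 carriers (58.5%) against 37.4% of all genes, and the highest in 9 (22.0%) against 37.7%. Of the 10 highest carriers per kilobase 7 were among the 12, all but *Slc25a5*, *Slc25a39* and *Slc25a46*. *Slc25a4* was at 1035.5 CPM in library 3 against 3959 to 5208 CPM in the others, *Slc25a3* at 382 against 931 to 1120 CPM, *Slc25a11* at 149 against 467 to 608 CPM and *Slc25a20* at 47.1 against 163 to 208 CPM. The widest gap was in *Slc25a34*, at 11.3 against 124 to 221 CPM, a log2 difference of -4.04 from the median of the others. *Slc25a42* followed at 3.67 against 12.5 to 25.1 CPM. *Slc25a39* (53.9 against 57.7 to 66.1 CPM) and *Slc25a46* (81.4 against 106 to 128 CPM) were below the others by less than 2-fold, and *Slc25a5* was at 83.5 CPM, inside the 74.9 to 93.2 CPM of the other libraries.

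The carriers over 2-fold above the others in library 3 were *Slc25a1*, the citrate carrier that supplies acetyl groups for fatty acid synthesis, and *Slc25a24*, an ATP-magnesium/phosphate carrier. *Slc25a1* was at 15.4 CPM against 3.84 to 5.29 CPM and *Slc25a24* at 41.6 against 10.2 to 12.6 CPM. In this library all 7 cardiomyocyte markers were the lowest of the 9 (summed 51692 CPM, against at least 129167 CPM in the others), and all 5 macrophage markers the highest (839 CPM). Of the 6 fibroblast markers 4 were the highest and 1 the lowest in library 3 (summed 2858 CPM, against 884 to 1330 CPM), and 4 of 5 endothelial markers were the lowest (342 CPM). Both tested atrial markers were the highest of the 9 there (4.13 CPM). Scaled to the cardiomyocyte markers, 1 carrier was over 2-fold below the other libraries (1.26% of all genes) and 23 were over 2-fold above (74.5% of all genes). limma's quality weight was 0.048 for library 3 and 0.54 to 2.16 for the others.

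**Figure D5:**
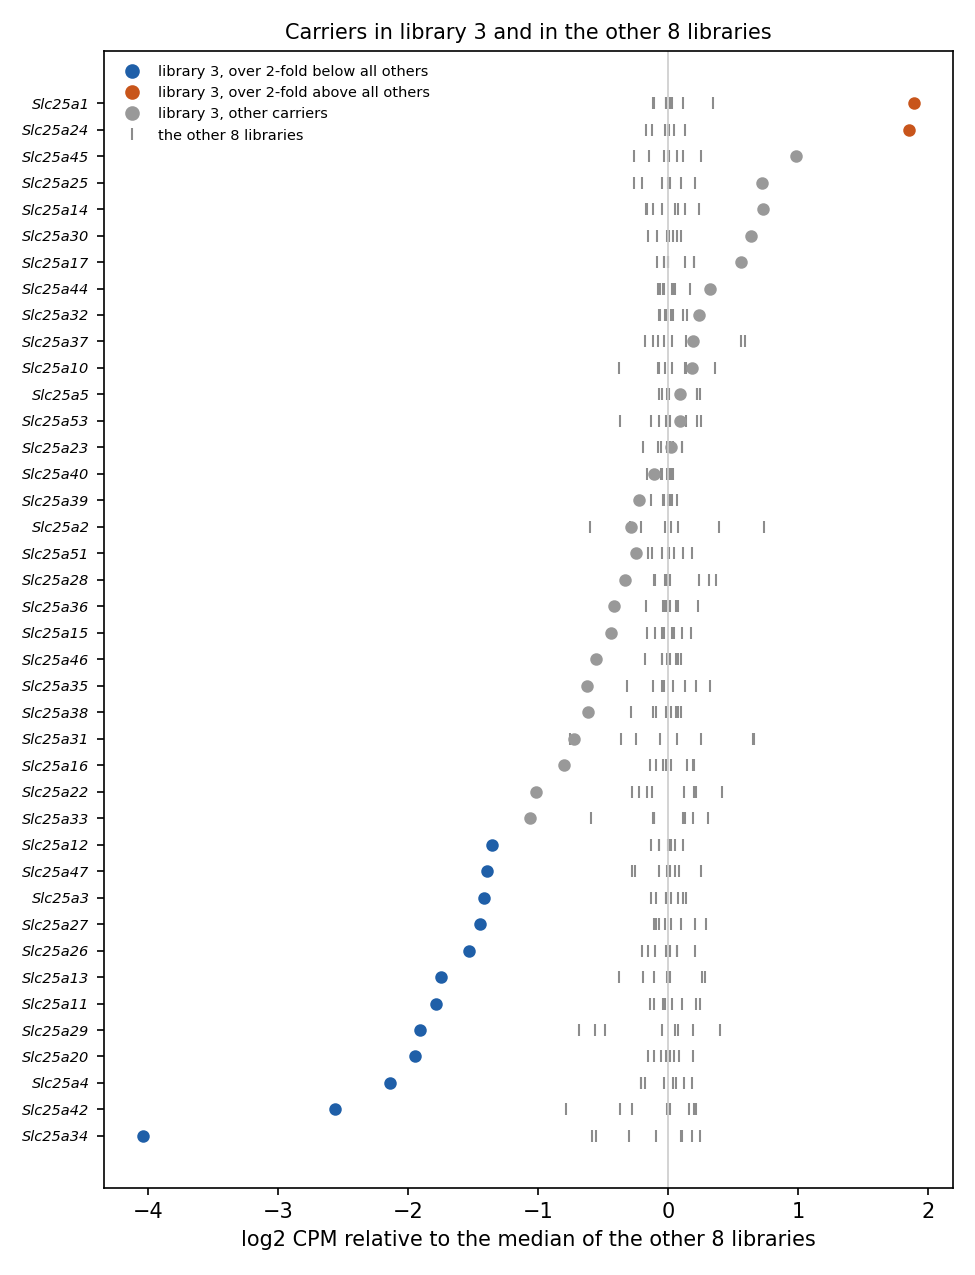
Log2 CPM of 40 of the tested carriers relative to the median of libraries 1, 2 and 4 to 9, with those 8 libraries as ticks and library 3 as a point. Library 3 is over 2-fold below all others for the 12 carriers in blue, down to *Slc25a34*, and over 2-fold above for *Slc25a1* and *Slc25a24* in orange.

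Of the 47 carriers, 6 had too few reads to be tested. *Slc25a41*, *Slc25a48* and *Slc25a54* had 1 to 3 counts over all 9 libraries. *Slc25a18* and *Slc25a21*, the latter a carrier of oxodicarboxylates, had at most 10 counts in any library. *Slc25a43* had 35 counts in library 3 and 3 to 14 in the others.

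Genes that work with the carriers were read in the same way, from a list of 24 of which 23 were tested. Between the labels, 0 of the 23 passed the adjusted edgeR test and 1 passed it without adjustment (*Timm13*, log2 fold change 0.20), where 6.11% of all genes did, and the median log2 fold change was 0.093. Of the uncoupling proteins, which belong to the same family under other symbols, *Ucp2* was the one without overlap between the sets. It was at 41.1, 29.5, 31.4 and 21.8 CPM in the Vdac2-low libraries 1, 5, 7 and 9 and at 13.8, 13.4, 17.1 and 14.0 CPM in libraries 2, 4, 6 and 8, a difference of 1.13. *Ucp3* was mixed between the sets (32.6 to 78.6 against 36.1 to 119 CPM) and was at 1.13 CPM in library 3. *Ucp1* had at most 1 count in any library. The pyruvate carrier subunits *Mpc1* and *Mpc2* were below in both lanes, with differences of -0.17 and -0.12. Of the 10 genes for import of carriers into the inner membrane, *Timm10* was above without overlap (difference 0.28) and *Agk* below (-0.23). Of the outer membrane channels and their partners, *Vdac1* and *Vdac3* had differences of -0.041 and -0.0051. *Hk2*, the hexokinase that binds VDAC, was at 213 to 297 CPM in the Vdac2-low and 349 to 398 CPM in the Vdac2-high libraries, a difference of -0.39. *Hk1*, the other hexokinase that binds VDAC, overlapped (129 to 145 against 112 to 139 CPM, difference 0.24), and *Tspo* was above without overlap (0.51). In all, 2 of the 23 were below without overlap (8.7%) and 3 above (13.0%), against the same 4.93% and 7.16% of all genes.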

How the data were processed

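Total RNA of left ventricular tissue was depleted of ribosomal RNA and sequenced in 9 libraries with a stranded kit. The authors deposited raw read counts per Ensembl gene, without normalization. The submitters' processing notes name STAR 2.7.2c, featureCounts 1.6.3, DESeq2 and GRCm38. How multi-mapping reads were treated, the strand setting and the Ensembl release are not given in the sources used here. Symbols were found for 52403 of 52636 genes, and coordinates, exon lengths and shared 50-base stretches are from GENCODE M21. Without strand, reads of a carrier and an overlapping opposite gene could be mixed.

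Counts were filtered by filterByExpr on the labelled groups, scaled by TMM and tested with edgeR 4.0.16 (R 4.3.3; quasi-likelihood, robust, Benjamini-Hochberg over 16322 genes). Each standard error was derived from the log2 fold change and its F statistic. Log2 CPM used a prior count of 2. No pair of libraries agreed within sampling noise (smallest chi-square 7.39 for each degree of freedom), so each counted as 1 sample. The script was tested on simulated data. Alternatives were DESeq2 1.42.0, limma 3.58.1 with quality weights, RLE and upper-quartile factors, mitochondrially encoded genes left out, other filters, lanes, library 3 placed with the Vdac2-low set, and each library left out. Scaling to the cardiomyocyte markers, and the counts in both lanes and in library 3, were added after the data were seen.

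Carriers, lists and tests were chosen with earlier results of these data known. Carriers with values in every library are *Slc25a4*, *Slc25a5*, *Slc25a3*, *Slc25a11*, *Slc25a12*, *Slc25a20* and *Slc25a31*, those without overlap between the Vdac2 sets, those with an unadjusted p under 0.05 between the labels, and the 10 highest per kilobase, 13 in all. Others named with values were chosen after these were seen. Proteins and the other assays of the study were not analysed here. Values of 1 tested carrier are not reported here, though it is in the counts over all carriers.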

Additional observations from a re-analysis of the deposited data

Results flagged for a closer look

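In each labelled group of 4 or 5 libraries, a library far from the others was looked for in 40 tested carriers. Of 80 groups, 16 held one. Chance gives about 1 in 20 for a single group, but the carriers share the same libraries, so the groups are not independent and the 2 rates cannot be compared. In 15 of the 16 the library was library 3, labelled WT. It was the lowest of the 5 libraries labelled WT for *Slc25a4* (1035.5 CPM), *Slc25a3* (382 CPM), *Slc25a11* (149 CPM), *Slc25a12* (91.1 CPM), *Slc25a46* (81.4 CPM), *Slc25a20* (47.1 CPM), *Slc25a26* (6.34 CPM) and *Slc25a27* (2.24 CPM). It was the highest of them for *Slc25a24* (41.6 CPM), *Slc25a44* (22.5 CPM), *Slc25a1* (15.4 CPM), *Slc25a25* (12.9 CPM), *Slc25a30* (10.7 CPM), *Slc25a45* (9.22 CPM) and *Slc25a14* (4.07 CPM). The other was library 9, labelled KO, in which *Slc25a44* was at 20.2 CPM against 18.4 to 18.6 CPM. *Slc25a44* was also the carrier whose Vdac2-low libraries were all below the Vdac2-high ones in lane 1 and all above in lane 2. The lanes differed by -0.11 in log2 CPM, and the difference was not tested.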

How the results depend on the processing

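No paired analysis was possible because the labels number the libraries 1 to 9 and no number is shared between the labelled groups. No carrier passed the adjusted test between the labels under any of the 16 alternatives, and the lowest adjusted p of a named carrier was 0.16 (*Slc25a33*, limma with quality weights). Of 207 alternative fold changes of named carriers between the labels, 8 changed sign. These were -0.024 (*Slc25a20*), -0.065 (*Slc25a15*) and -0.064 (*Slc25a46*) without library 3, -0.044 (*Slc25a31*), -0.020 (*Slc25a15*) and -0.0019 (*Slc25a46*) without library 8, and -0.026 (*Slc25a15*) and -0.045 (*Slc25a46*) with limma's quality weights. With a library left out, the ranges of these were -0.024 to 0.34 (*Slc25a20*), -0.044 to 0.42 (*Slc25a31*), -0.065 to 0.087 (*Slc25a15*) and -0.064 to 0.090 (*Slc25a46*). The difference in *Vdac2* between the labels changed sign without library 1 (-0.35), 5 (-0.33), 6 (-0.55) or 8 (-0.60), over a range of -0.60 to 0.89. Carriers with an unadjusted p under 0.05 numbered 0 to 5 with a library left out (0 without library 8, against 3.06% of all genes, 2 without library 4 or 5, against 6.67% and 5.12%, and 5 without library 3, against 11.8%) and 3 with quality weights (13.6% of all genes).

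With a library left out, 2 to 7 carriers had all Vdac2-low libraries below (7 without library 9, 5 without 6 or 7, 4 without 1 or 4) and 0 to 3 above (3 without library 7, 1 without 2, 6 or 8). The share of all genes was also higher then, for those below 8.25% without library 9, 6.48% and 7.65% without 6 and 7, and 6.34% and 6.82% without 1 and 4, and for those above 9.89% without 7 and 8.77%, 8.78% and 9.66% without 2, 6 and 8. There were 18 below and 7 above in lane 1 alone (23.3% and 24.5% of all genes), and 10 and 3 in lane 2 alone (17.1% and 20.7%). Upper-quartile factors or no filter on low counts gave 1 above (7.73% and 4.45% of all genes). Without that filter, 2 carriers were above in both lanes (6.98% of all genes) and 4 were over 2-fold above in library 3 (10.2%), and 2 were above in both lanes with at least 10 counts in every library (11.7%). Scaled to the cardiomyocyte markers, which shifts all genes alike, 0 were below and 10 above (0.76% and 23.8% of all genes), the median difference was 0.11 against 0.20 over all genes, 0 were below and 14 above in both lanes (1.38% and 37.7%), and library 3 was over 2-fold below in 1 and above in 23 (1.26% and 74.5%). The causes were not tested. Low carriers such as *Slc25a31* are limited by depth.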
